A study of Homo sapiens with 5 samples.

Results

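The 10 genes described here encode the enzymes that set the phosphorylation of eIF2α, the α subunit of the initiation factor that brings the first tRNA to the ribosome. They are the eIF2α kinases EIF2AK1 (HRI), EIF2AK2 (PKR), EIF2AK3 (PERK) and EIF2AK4 (GCN2), the GCN2 regulators GCN1L1 and IMPACT, and the phosphatase subunits PPP1R15A (GADD34), PPP1R15B (CReP), PPP1CA and PPP1CC. They were taken by symbol from the authors' deposited table of a bulk RNA-seq comparison, and all 10 were among its 11976 genes. The groups were 3 libraries labelled ERF knockout and 2 libraries labelled wild type, all from HUDEP-2, an immortalised line of erythroid precursors that came from umbilical cord blood cells. ERF is an ETS-domain transcriptional repressor. The titles of the wild-type libraries carry the letters SCR and the name of the deposited comparison carries Pre, and the labels explain neither. The way ERF was edited, the number of clones and the culture stage are not stated in the sources used here.

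When a kinase phosphorylates eIF2α on a conserved serine, eIF2 blocks its own exchange factor, eIF2B, and general initiation slows while a few mRNAs, among them that of the transcription factor ATF4, are translated better. HRI is held inactive by heme and is the kinase best known in erythroid precursors, where it matches globin synthesis to heme supply, while PKR answers to double-stranded RNA, PERK to unfolded protein in the endoplasmic reticulum and GCN2 to uncharged tRNA and stalled ribosomes. Protein phosphatase 1 (PP1) reverses the modification when PPP1R15A, which stress induces, or PPP1R15B, which is present without stress, brings its catalytic subunit to eIF2α. The table measures RNA, so kinase activity and eIF2α phosphorylation were not observed.

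The header of the authors' deposited table does not name the group in the numerator, and the sign used below is an assumption. It was set so that the γ-globin gene HBG2 is higher in the knockout, as the series title implies, which multiplies the deposited log2 fold changes by -1. In the authors' deposited table, HBG2 then had a log2 fold change of 1.88 (standard error, SE, 0.22). Under this sign ERF itself goes against its label, since the authors' deposited table has it 1.85-fold higher in the libraries labelled knockout (log2 fold change 0.89, SE 0.07, adjusted p = 6.44e-06, edgeR). If the deposited sign is knockout over wild type instead, every direction below is exchanged, and each statement of higher or lower assumes the sign set here. What does not depend on the sign is whether a gene moved with or against ATF4 and its targets, and this is given beside each call.

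The authors' deposited table holds no value per library, so levels are means over all 5 libraries, and depth and spread per library are unknown. Standard errors and 95% intervals were derived from the deposited fold change and F statistic, and since the labels name no separate cultures, the p-values reflect the variation among these libraries alone, which could be technical. All 12 erythroid markers examined were measured, at 6.90 to 12.48 log2 CPM (log2 counts scaled to library size) in the authors' deposited table. Of the markers of other cell types, LYZ stood at 0.48, ITGA2B at 7.26 and the mast cell tryptases TPSAB1 and TPSB2 at 7.37 to 9.18 log2 CPM in the authors' deposited table, while the other 26 markers were not analysed here. In the libraries labelled knockout, 8 of the 12 erythroid markers and both tryptase genes were called higher and none of these markers lower. Over all genes, 24.9% were called higher and 25.9% lower. What part these markers had in the results was not tested.

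Across the whole set, the eIF2α kinases and their regulators changed little. In the authors' deposited table, 5 of the 10 genes had an adjusted p below 0.05, against 50.9% of all genes, so the share of calls was that of the background. EIF2AK2, GCN1L1 and PPP1CA were higher in the libraries labelled knockout, where 24.9% of all genes were called higher, and IMPACT and PPP1R15B were lower, where 25.9% of all genes were. The median absolute log2 fold change of the 10 genes was 0.12 in the authors' deposited table, against 0.21 over all genes. All of the set but EIF2AK3 lay above the median level of all genes, 4.64 log2 CPM. Genes of like level were not compared, so the background for both measures is that of less abundant genes as well. The values ran from -0.33 for IMPACT to 0.48 for EIF2AK2 in the authors' deposited table, and no gene of the set reached a 2-fold difference. Of all genes called in either direction, 93.6% also lay under 2-fold. Under Bonferroni adjustment the call of EIF2AK2 alone was kept, and at an adjusted p below 0.01 those of EIF2AK2, GCN1L1 and IMPACT. In bulk RNA, fewer cells expressing a gene and less of its RNA per cell cannot be told apart.

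**Figure D1:**
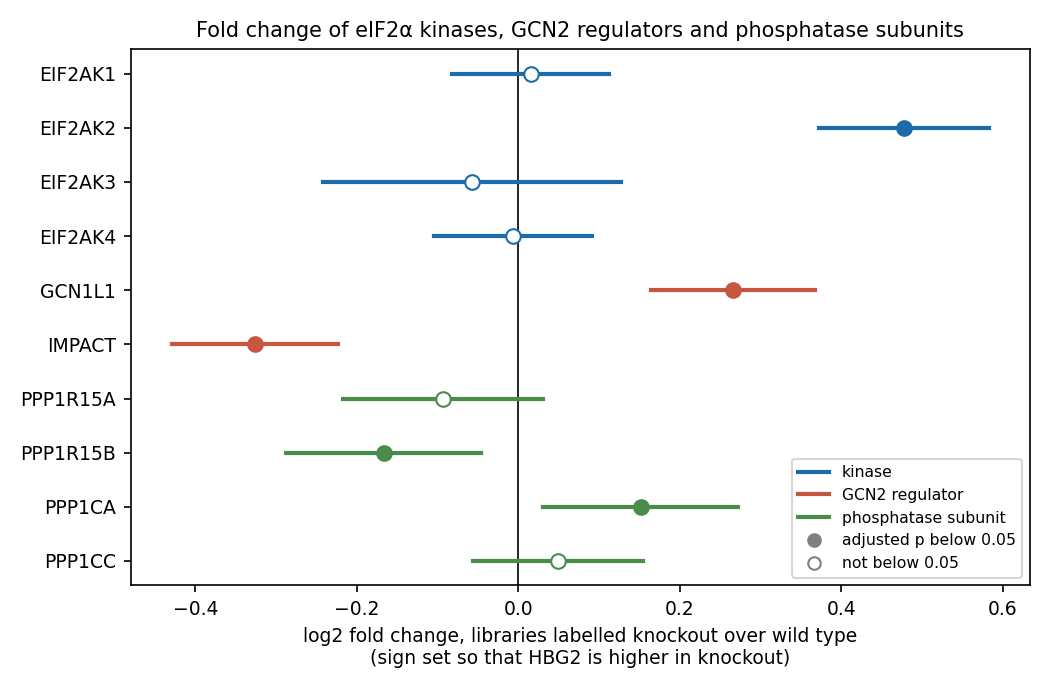
Log2 fold change (horizontal axis, libraries labelled knockout over wild type) of the 10 genes by role, with points for the deposited value, lines for the derived 95% interval and filled points for an adjusted p below 0.05. EIF2AK2 is the farthest from 0 at 0.48 and IMPACT lies lowest at -0.33, while the intervals of EIF2AK1, EIF2AK3, EIF2AK4, PPP1R15A and PPP1CC cross 0.

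Of the kinases, only EIF2AK2 passed the threshold. In the authors' deposited table, EIF2AK2 (ENSG00000055332, chromosome 2) was at 0.48 on the log2 scale (SE 0.05, 95% interval 0.37 to 0.58, adjusted p = 2.67e-05, edgeR). Libraries labelled knockout thus had 1.39 times as much of this RNA, a change opposite to that of ATF4, and 83.2% of all genes had an absolute log2 fold change no larger than that of EIF2AK2 in the authors' deposited table. EIF2AK2 is itself an interferon-stimulated gene. Its interval did not overlap that of any of the other kinases.

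The remaining kinases had intervals that held 0, narrow for EIF2AK1 and EIF2AK4 and wider for EIF2AK3. In the authors' deposited table, EIF2AK1 (ENSG00000086232, chromosome 7), the heme-regulated kinase, was at 0.015 on the log2 scale (SE 0.04, adjusted p = 0.791, edgeR). Its 95% interval, as derived from the authors' deposited table, ran from -5.55% to 8.13% relative to wild type, and its value was -0.019 once the median of genes at or above 5 log2 CPM was set to 0. In the authors' deposited table, EIF2AK4 (ENSG00000128829, chromosome 15) was at -0.0071 (SE 0.04, adjusted p = 0.904, edgeR). The intervals of both genes thus hold changes of less than 10% in either direction, which is a bound on the size and not evidence that the groups were alike. EIF2AK3 (ENSG00000172071, chromosome 2) was at -0.057 in the authors' deposited table (edgeR adjusted p = 0.591), and its wider interval of -0.24 to 0.13 stands beside a low level of 3.74 log2 CPM.

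The promoter of EIF2AK2 is shown because this kinase was higher together with most interferon-stimulated genes. The window, from RefSeq (GRCh38.p14, chr2:37156931-37157230, minus strand), runs from 250 bases before to 50 after the gene start, and capitals mark the interferon-stimulated response element, searched as GAAA, then any pair of bases, then GAAA.
EIF2AK2: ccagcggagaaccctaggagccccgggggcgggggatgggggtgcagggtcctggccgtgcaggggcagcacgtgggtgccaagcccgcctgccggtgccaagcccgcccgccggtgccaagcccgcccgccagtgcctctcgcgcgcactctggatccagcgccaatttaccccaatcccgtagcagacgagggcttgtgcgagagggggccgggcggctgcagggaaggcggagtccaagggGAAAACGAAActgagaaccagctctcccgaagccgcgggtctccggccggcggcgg
The match begins 6 bases before the annotated start and reads GAAAACGAAA. Searched on both strands, this motif was in 1 of the 8 promoters of the set that RefSeq's table holds, in 3.65% of all 27305 promoters, in 2.73% of those of measured genes and in 11 of the 21 promoters of the listed interferon-stimulated genes. A match describes the letters of the window and not a bound factor.

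Interferon-stimulated genes other than EIF2AK2 were mostly higher. Of 27 measured, 18 were higher and 3 lower in the authors' deposited table, or 77.8% against 50.9% of all genes, and their median log2 fold change was 0.38, against -0.0019 over all genes. The 3 lower genes were IRF1 at -0.45, DDX58 at -0.26 and STAT2 at -0.20 in the authors' deposited table. IFI44 stood at 3.22 and OASL at 2.73 in the authors' deposited table, with low mean levels of 1.57 and 0.08 log2 CPM. IFIT3, which binds viral RNA with its partners, stood at 1.46 and ISG15, a ubiquitin-like modifier, at 1.44 in the authors' deposited table. EIF2AK2 at 0.48 lay just above this median, beside SAMD9 at 0.49 and PARP9 at 0.47 in the authors' deposited table.

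Proteins that act on PKR changed in small steps. Of 11 measured activators and inhibitors, 7 were higher and 0 lower, or 63.6% against 50.9% of all genes, the median being 0.15 on the log2 scale in the authors' deposited table. DHX9, an RNA helicase, stood at 0.35, ILF2 at 0.20 and PRKRIR at 0.18 in the authors' deposited table. DNAJC3, a chaperone that inhibits both PKR and PERK, was at 0.13 in the authors' deposited table (edgeR adjusted p = 0.0363). PRKRA, the protein activator of PKR known as PACT, was at -0.15 and did not pass the threshold in the authors' deposited table (edgeR adjusted p = 0.0507).

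The chaperones that hold HRI were among the larger changes around these kinases, while HRI RNA was not called. Of 10 measured HRI inputs, 5 were higher and 1 lower, or 60.0% against 50.9% of all genes, the median being 0.15 on the log2 scale in the authors' deposited table. HSPA8, the constitutive cytosolic Hsp70, stood at 1.16 and HSP90AA1 at 0.89 in the authors' deposited table. HSP90AB1, the constitutive Hsp90, stood at 0.33 in the authors' deposited table. KIAA0141, which encodes DELE1, the protein that carries mitochondrial stress to HRI, was the lower member in the authors' deposited table, at -0.32 (SE 0.05). HSPA8 and both Hsp90 genes have near-identical pseudogene copies, so their counts are uncertain. OMA1, the protease that releases DELE1, stood at -0.10 and was not called in the authors' deposited table.

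Around PERK, the sensor was not called, while several chaperones of its compartment were higher and the stress sensors ERN1 and ATF6 lower. Of 14 measured inputs and sensors, 8 were higher and 3 lower, or 78.6% against 50.9% of all genes, the median being 0.25 on the log2 scale in the authors' deposited table. HSPA5 (BiP), the chaperone that binds the luminal part of PERK, stood at 1.87 and HSP90B1 at 1.19 in the authors' deposited table. SDF2L1 and MANF, both of the endoplasmic reticulum, stood at 1.29 and 1.28 in the authors' deposited table. The 3 lower genes were XBP1, a transcription factor of the unfolded protein response, at -0.93, ERN1, which encodes IRE1α, at -0.44 and ATF6, a membrane-bound transcription factor, at -0.29 in the authors' deposited table. ERN1 had a low mean level of 2.07 log2 CPM. DNAJB9, a further chaperone of this compartment, was at -0.21 and not called in the authors' deposited table (edgeR adjusted p = 0.141). NCK1, an adaptor that favours eIF2α dephosphorylation, had a value of -0.14 that did not pass the threshold in the authors' deposited table (edgeR adjusted p = 0.0716).

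The regulators of GCN2 moved in opposite directions, while GCN2 RNA itself was not called. GCN1L1 (ENSG00000089154, chromosome 12), named GCN1 in current annotation, encodes the ribosome-bound protein that GCN2 needs for activation. The authors' deposited table gave it a log2 fold change of 0.27 (SE 0.05, 95% interval 0.16 to 0.37, adjusted p = 0.000847, edgeR), against the direction of ATF4. IMPACT (ENSG00000154059, chromosome 18) encodes a protein that competes with GCN2 for GCN1 and so restrains the kinase. The authors' deposited table gave it a log2 fold change of -0.33 (SE 0.05, 95% interval -0.43 to -0.22, adjusted p = 0.000257, edgeR), in the direction of ATF4. In the libraries labelled knockout the activator was thus 1.20-fold higher and the inhibitor 1.25-fold lower, and under the other sign both are exchanged.

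The promoters of this pair are shown because the genes moved apart and because ERF belongs to the ETS family. They come from RefSeq (GRCh38.p14), GCN1L1 from chr12:120194666-120194965 on the minus strand and IMPACT from chr18:24426420-24426719 on the plus strand, and the ETS core CCGGAAG is in capitals.
GCN1L1: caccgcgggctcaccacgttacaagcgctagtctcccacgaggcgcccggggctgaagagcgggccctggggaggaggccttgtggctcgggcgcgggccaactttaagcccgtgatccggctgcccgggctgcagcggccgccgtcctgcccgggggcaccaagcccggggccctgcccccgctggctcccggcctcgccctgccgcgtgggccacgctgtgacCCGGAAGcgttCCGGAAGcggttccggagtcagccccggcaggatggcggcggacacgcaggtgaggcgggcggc
IMPACT: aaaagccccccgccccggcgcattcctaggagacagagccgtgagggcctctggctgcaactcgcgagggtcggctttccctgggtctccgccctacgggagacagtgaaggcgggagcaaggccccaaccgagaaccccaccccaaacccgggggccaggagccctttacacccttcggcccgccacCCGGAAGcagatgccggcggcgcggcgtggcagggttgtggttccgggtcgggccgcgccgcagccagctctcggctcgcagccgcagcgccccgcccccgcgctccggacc
The core stands at positions -25 and -14 in GCN1L1 and at position -62 in IMPACT, counted from the gene start. Both members of a pair that differed in direction therefore hold it. Over both strands it was in 4 of the 8 promoters of the set, the others being EIF2AK3 and PPP1R15B. It was in 10.7% of all promoters and in 21.1% of those of measured genes. Over the 9 related lists, the share of promoters with the core ran from 6.25% (other PP1 subunits) to 40% (GCN2 inputs). The promoter of EIF2AK2 does not hold these letters in this window.

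Of the other inputs to GCN2, those listed changed little. The list held no enzyme that charges tRNA and no amino acid transporter, so tRNA charging is not covered by it. Of 10 measured, 2 were higher and 1 lower, or 30.0% against 50.9% of all genes, the median being -0.02 on the log2 scale in the authors' deposited table. The lower member was RPLP0, a protein of the ribosomal stalk that activates GCN2, at -0.12 in the authors' deposited table, and its stalk partners RPLP1 (-0.15) and RPLP2 (-0.07) were not called. ABCF1, an eIF2-binding protein, stood at 0.41 and ABCF2 at 0.26, as the authors' deposited table gives them.

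Among the phosphatase subunits, both calls were small. PPP1R15B (ENSG00000158615, chromosome 1), the constitutive targeting subunit, was at -0.17 on the log2 scale (SE 0.05, 95% interval -0.29 to -0.05, adjusted p = 0.0261, edgeR) in the values of the authors' deposited table. It was 1.12-fold lower in the libraries labelled knockout, in the direction of ATF4. PPP1R15A (ENSG00000087074, chromosome 19), the inducible subunit and an ATF4 pathway target, was at -0.09 (95% interval -0.22 to 0.03, adjusted p = 0.186, edgeR) in the values of the authors' deposited table. The intervals of the paralogues overlap, so the call for PPP1R15B does not set it apart from PPP1R15A.

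The PPP1R15B promoter is shown because it was the only promoter of the 8 with the letters TGATGNAA of the C/EBP-ATF response element, through which ATF4 acts. It comes from RefSeq (GRCh38.p14, chr1:204411768-204412067, minus strand), and capitals mark that element, as TGATGCAA, and CTTCCGG, the ETS core on the opposite strand.
PPP1R15B: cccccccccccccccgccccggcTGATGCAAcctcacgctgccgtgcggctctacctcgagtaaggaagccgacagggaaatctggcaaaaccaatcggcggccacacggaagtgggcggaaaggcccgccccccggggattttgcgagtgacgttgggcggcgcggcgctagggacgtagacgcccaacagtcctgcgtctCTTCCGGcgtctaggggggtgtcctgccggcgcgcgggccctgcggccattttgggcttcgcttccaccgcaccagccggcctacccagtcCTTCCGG
The C/EBP-ATF element begins 227 bases before the gene start and the ETS cores at positions -48 and 44, with no overlap between them. The C/EBP-ATF element was in 3.67% of all promoters, in 1.57% of those of measured genes and in 5 of the 20 promoters of the listed ATF4 pathway genes. The PPP1R15A window held TGACGTCA, the cAMP response element, which was in 1.98% of all promoters and in 3.51% of those of measured genes. None of the 8 promoters held the ER stress element.

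The catalytic subunits of PP1 are shared by many targeting subunits and are not particular to eIF2α. PPP1CA (ENSG00000172531, chromosome 11) was at 0.15 on the log2 scale (SE 0.05, 95% interval 0.03 to 0.27, adjusted p = 0.0394, edgeR) in the values of the authors' deposited table. Its direction was opposite to that of ATF4. This call was lost under the centring described for EIF2AK1, where the gene stood at 0.12 (adjusted p = 0.0967), computed from the authors' deposited table. PPP1CC (ENSG00000186298, chromosome 12) stood at 0.05 and PPP1CB, the catalytic subunit outside the set, at -0.11 in the authors' deposited table, and neither was called. Of 20 other PP1 subunits measured, PPP1CB included, 6 were higher and 4 lower, so that 10 of the 20 were called, a share at the background of 50.9% of all genes, the median being -0.07 on the log2 scale in the authors' deposited table. PPP1R18, an actin-binding subunit, stood at 1.17, PPP1R10, a nuclear targeting subunit, at 0.45, PPP1R35 at -0.44 and the glycogen-targeting subunit PPP1R3E at -0.70 in the authors' deposited table. Mean levels were low for PPP1R18, PPP1R35 and PPP1R3E, at 2.73, 0.99 and 2.94 log2 CPM.

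**Figure D2:**
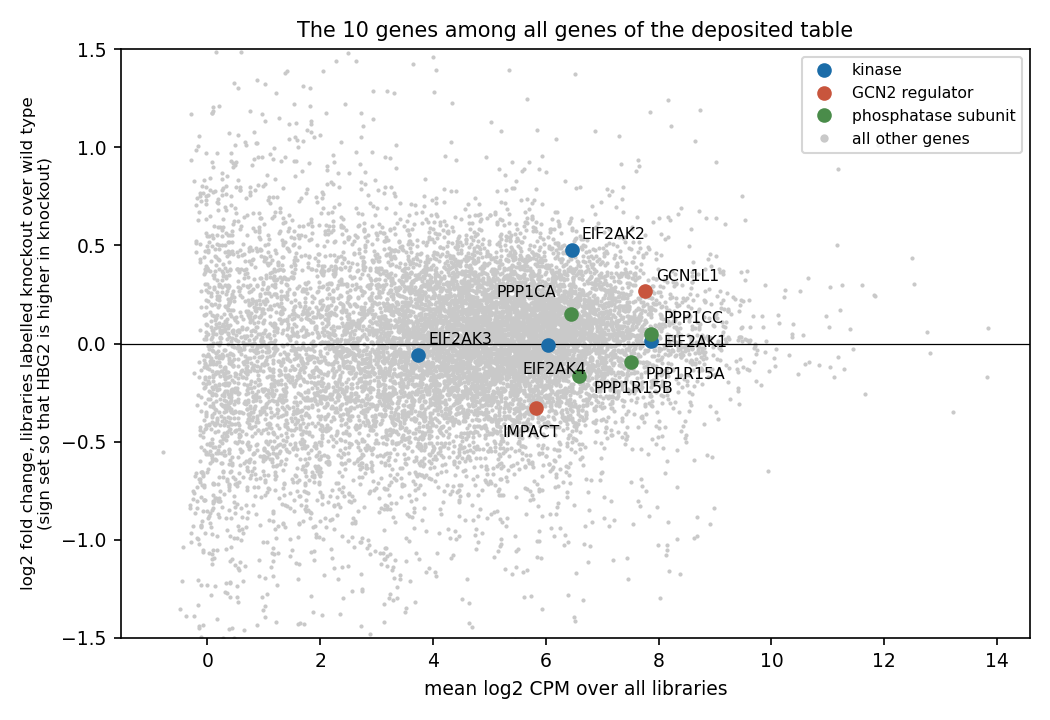
Log2 fold change (vertical axis, libraries labelled knockout over wild type, cut at 1.5 on either side, which leaves out 117 genes) against mean log2 CPM over all libraries for each gene of the deposited table. The 10 genes, coloured by role, lie between -0.33 and 0.48 within the cloud of all genes, and EIF2AK3 has the lowest mean at 3.74 log2 CPM.

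The set spanned a wide range of expression. Per kilobase of annotated exon, PPP1R15A had the highest mean level at 6.25 log2 CPM per kb, computed from the authors' deposited table, followed by PPP1CA at 5.84, EIF2AK1 at 5.71 and PPP1CC at 5.63. GCN1L1 stood at 4.65, PPP1R15B at 4.20 and IMPACT at 3.90 log2 CPM per kb, computed from the authors' deposited table. The remaining kinases were lower, with EIF2AK4 at 3.13, EIF2AK2 at 3.10 and EIF2AK3 at 1.46 log2 CPM per kb, computed from the authors' deposited table. This order depends on the exon length used, which merges all annotated exons and was 10276 bases for EIF2AK2. Before scaling by length, EIF2AK2 stood at 6.46 log2 CPM, above EIF2AK4 at 6.04. The median over genes was 2.79 log2 CPM per kb, so EIF2AK3 alone of the set lay below it. HRI RNA was the most abundant of the kinases per length. No spread per library is known for these levels, so whether neighbours in this order differ was not tested.

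**Figure D3:**
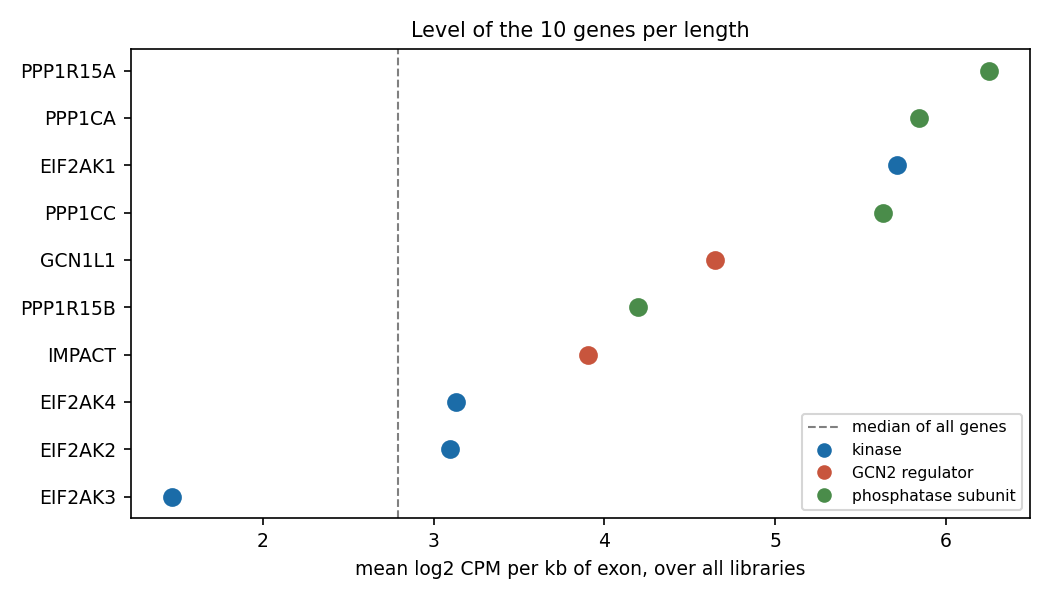
Mean level of the 10 genes over all libraries, in log2 CPM per kb of annotated exon (horizontal axis), coloured by role and ordered from high to low, with the median of all genes as a dashed line. EIF2AK1 at 5.71 lies above the other kinases, and EIF2AK3 at 1.46 lies below the median of 2.79.

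Several of these genes share exons with a neighbour on the opposite strand, and none of the sources used here says whether strand was used in counting. By GENCODE release 29, the shared part is 16.9% of the exon length of EIF2AK3, 14.9% of PPP1CA (with RAD9A), 11.9% of EIF2AK1 (with AIMP2) and 4.24% of EIF2AK2. The other 6 genes share none. How reads from the shared parts were counted cannot be read from the values.

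The subunits of eIF2, the substrate of these enzymes, did not move together. Of 12 measured genes of eIF2, eIF2B and their partners, 7 were higher and 3 lower (83.3%, against 50.9% of all genes), the median being 0.20 on the log2 scale in the authors' deposited table. EIF2S1, which encodes eIF2α itself, was at 0.47 in the authors' deposited table (SE 0.05, adjusted p = 2.67e-05, edgeR), whereas the other eIF2 subunits were lower, EIF2S2 (eIF2β) at -0.36 and EIF2S3 (eIF2γ) at -0.35. The subunits of this complex thus differed in direction under either sign. EIF5, the GTPase-activating partner of eIF2, stood at 0.88 and BZW1, an eIF5 mimic, at 0.65 in the authors' deposited table. Of the eIF2B subunits, EIF2B3, EIF2B4 and EIF2B5 were higher, at 0.30, 0.29 and 0.17, in the authors' deposited table.

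Other initiation and reinitiation factors, those of general initiation such as EIF1 and EIF5B included, went both ways. Of 10 measured, 3 were higher and 3 lower, or 60.0% against 50.9% of all genes, the median being -0.02 on the log2 scale in the authors' deposited table. EIF1, which guards start codon choice, stood at -0.73 in the authors' deposited table. EIF2A and EIF2D, which can deliver tRNA without eIF2, stood at -0.27 and -0.24, and the subunit-joining factor EIF5B at 0.24 in the authors' deposited table.

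The genes downstream of eIF2α phosphorylation had a median absolute log2 fold change of 2.07, computed from the authors' deposited table, against 0.12 for the 10 genes that control it. Of the 25 genes of the ATF4 list that were measured, 25 were lower and 0 higher, where 25.9% of all genes were called lower. Their median was -2.07 on the log2 scale in the authors' deposited table. PPP1R15A, described above as an ATF4 pathway target, was not on this list and was not called, at -0.09. This list was written with earlier results of these data known, so neither its direction nor the size of its changes is independent evidence. ATF4 was at -0.88 (SE 0.05, adjusted p = 3.90e-07, edgeR) in the values of the authors' deposited table, and DDIT3 (CHOP), a transcription factor of prolonged stress, at -2.07. STC2, a secreted glycoprotein, stood at -4.95, CHAC1, which degrades glutathione, at -4.38, DDIT4, an mTORC1 inhibitor, at -4.09 and NUPR1 at -3.80 in the authors' deposited table. Mean levels were low for STC2, DDIT3 and NUPR1, at 2.69, 2.22 and 0.94 log2 CPM. The smallest change on this list was that of XPOT, a tRNA exporter, at -0.59 in the authors' deposited table, larger in size than that of any of the 10 genes.

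**Figure D4:**
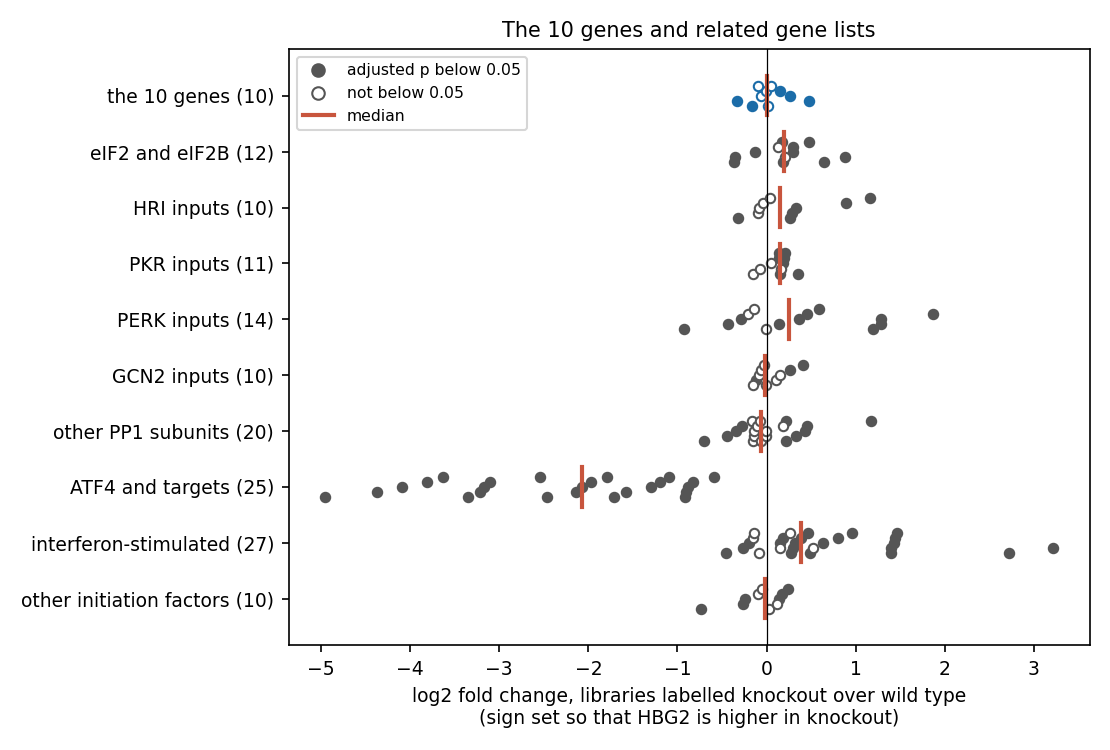
Log2 fold change (horizontal axis, libraries labelled knockout over wild type) of each gene of the set, in blue, and of 9 related lists, with the number measured in brackets, filled points for an adjusted p below 0.05 and red bars for medians. The 10 genes lie between -0.33 and 0.48, whereas all 25 genes of the ATF4 list lie at -0.59 or lower.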

How the data were processed

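Bulk RNA-seq of 5 HUDEP-2 libraries was analysed from a single table deposited by the authors, their comparison of mutant and wild-type cells. Per the labels' protocols, Trizol RNA and an Illumina TruSeq kit were used. Per the submitters' processing notes, the authors used edgeR 2.6.12, Cuffdiff, HTSeq, SAMtools and TopHat2 2.0.4 with the build hg19/GRCh37, in roles not stated. Per the file headers, the authors' deposited values hold for each gene the log2 fold change and mean log2 CPM, the F score of a quasi-likelihood test, and its p-value before and after adjustment. No source used here states the filter or the normalization. Of 11979 rows, 3 name no gene and hold 21.5% of the CPM; they were left out of counts here. The table has 0 columns per sample, so no model was refitted and depth per sample is unknown.

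The deposited adjusted p (Benjamini-Hochberg, recomputed to within 0.676%) was the test, with a threshold of 0.05. Standard errors were the absolute log2 fold change over the square root of F, and 95% intervals came from the t distribution at 10.3 degrees of freedom for every gene. That number was the median, over rows of intermediate p, of the degrees of freedom implied by F and p. Standard errors and intervals are approximations, since the authors' edgeR fold changes include a prior count. These steps were tested on simulated data. Levels per length used exons of GENCODE release 29 basic transcripts, matched by identifier for 97.8% of genes. Promoters came from RefSeq. Python 3.11.15, pandas 2.3.3 and SciPy 1.17.1 were used.

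The genes and lists were chosen with earlier results of these data known. Chosen after their values were seen were XBP1, ERN1, ATF6, DNAJB9, OMA1, RPLP1, RPLP2, SAMD9, PARP9, XPOT, EIF2S3, IRF1, DDX58, STAT2 and the eIF2B subunits. The rule named the 10 genes, ERF, HBG2, each list's 4 largest called changes and direct partners (EIF2S1, NCK1, DNAJC3, PRKRA, PPP1CB, ATF4, DDIT3). A gene that this rule names is not reported here. Alternatives were the deposited sign, centring, other adjustments and thresholds, and a minimum level.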

Additional observations from a re-analysis of the deposited data

How the results depend on the processing

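Read with the deposited sign, every direction is exchanged: EIF2AK1 stands at -0.015, EIF2AK2 at -0.48, EIF2AK3 at 0.057, EIF2AK4 at 0.0071, GCN1L1 at -0.27, IMPACT at 0.33, PPP1R15A at 0.094, PPP1R15B at 0.17, PPP1CA at -0.15 and PPP1CC at -0.049, with the calls as before. Setting the median of genes at or above 5 log2 CPM to 0, a shift of 0.03, turned EIF2AK1 to -0.019, which was not called under either setting, and ended the call of PPP1CA; over all genes it gave 2566 higher and 3532 lower calls, against 2987 and 3105. With Bonferroni adjustment, 1 of the 10 genes (EIF2AK2) remained higher and 0 lower, with 314 higher and 464 lower over all genes. At an adjusted p below 0.01, 1 gene (IMPACT) remained lower, and PPP1R15B and PPP1CA were no longer called. Adjustment over genes alone, an unadjusted p below 0.05 and a minimum of 2 log2 CPM changed no call of the 10 genes. No paired analysis was possible because the table holds no values per library, and for the same reason leaving out a replicate, other normalizations and a fit without the filter were not run. The unknown depth per library limits what can be said of EIF2AK3, the least abundant gene of the set.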
